A study of Mus musculus with 10 samples.

Results

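The genes of bile acid synthesis and of its feedback control were described in regenerating mouse livers, taken 40 h after much of the organ had been removed (partial hepatectomy). The set holds 10 genes, chosen by name for their known roles and found by symbol in the deposited table of transcript levels: Cyp7a1, Cyp8b1, Cyp27a1, Cyp7b1, Cyp39a1, Akr1d1, Slc27a5, Baat, Nr0b2 and Fgfr4. All 10 were present, each at 1 locus that overlapped no other locus of the table, among 23535 loci with usable values. The livers fell into 2 groups of 3. The KO mice carried floxed Arid1a alleles and the Alb-cre transgene (genotype Arid1a Fl/Fl; Alb-cre), and the WT mice carried the floxed alleles without Cre (Arid1a Fl/Fl). All were at postnatal day 90, were of the strain given as C57/B6 and 129 mix, and had been operated on. The albumin promoter drives Cre in hepatocytes, and how far other liver cells, such as bile duct cells, keep Arid1a was not measured here. Arid1a encodes a subunit of SWI/SNF, a complex that remodels chromatin. The pre-hepatectomy samples, 2 KO and 2 WT, were not analysed here, so the effect of the operation itself was not measured.

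Bile acids are made from cholesterol in hepatocytes by a classic pathway, which opens with Cyp7a1, and by an alternative pathway, which opens with Cyp27a1. They are conjugated to taurine or glycine, secreted into bile and largely taken back up in the ileum. Returning bile acids activate the nuclear receptor FXR (Nr1h4), which induces the repressor SHP (Nr0b2) in the liver and the hormone FGF15 in the ileum, and FGF15 acts on hepatocytes through FGFR4 and β-Klotho to repress Cyp7a1.

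Levels are given as FPKM, the number of sequenced fragments divided by transcript length and library size, so that genes can be compared per length. Differences are KO minus WT on the scale of log2(FPKM + 1), with limma and Benjamini-Hochberg adjustment over the 10956 loci that averaged at least 1 FPKM, and a locus was called at an adjusted p under 0.05. Across all tested loci 13 were called, 2 higher and 11 lower in KO, or 0.119%. After median-of-ratios rescaling, which divides each library by its median ratio to the mean library, 0 were called higher and 13 lower. The labels do not say that the libraries came from separate mice, so each p-value reflects only how far these libraries differ among themselves, which may be technical. In a bulk sample fewer cells of a type and less RNA per cell cannot be told apart.

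Arid1a itself had 4.41, 5.57 and 6.15 FPKM in KO livers, against 8.68, 8.45 and 8.49 FPKM in WT livers, and its difference was -0.59 (SE 0.15, limma adjusted p = 0.207). Every KO value lay below every WT value. Summed FPKM lay between 409142 and 495209 per library, and 14874 to 15287 loci stood above the listed floor. KO replicate 2 stood apart from the other KO libraries. Its rank correlation across tested loci was 0.884 with KO replicate 1 and 0.874 with KO replicate 3, whereas those 2 had 0.938 with each other. With WT replicate 1 it had 0.902. A value this high across groups was not particular to it, as KO replicate 1 had 0.921 with WT replicate 3. Summed over 12 genes of the G2 and M phases, the KO libraries spanned 15.1 to 531 FPKM and the WT libraries 10.1 to 47.1 FPKM, with KO replicate 2 at the low end of KO. The 10 hepatocyte marker genes summed to 44577 to 53632 FPKM in KO and to 48301 to 53735 FPKM in WT, with 0 of 10 called.

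Of the 10 bile acid genes, 10 passed the filter on low values and 0 were called by limma, against 0.119% of all tested loci, and 1 (Cyp39a1, lower in KO) had an unadjusted p under 0.05. At that level stood 15.2% of all tested loci, 11.2% higher and 3.99% lower in KO, so 1 of 10 is no more than the background. The median of their 10 differences was -0.17, which is 0.31 below the median of all tested loci (0.15). Set against that median, each difference given here would be lower by 0.15. In 1 gene every KO value lay above every WT value (Fgfr4), against 16.7% of all tested loci, and in 1 every KO value lay below (Cyp39a1), against 5.44%. After the rescaling, Cyp39a1 alone kept its groups apart, against 8.0% of loci above and 9.67% below. The median without KO replicate 2 was 0.02 relative to all loci.

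**Figure D1:**
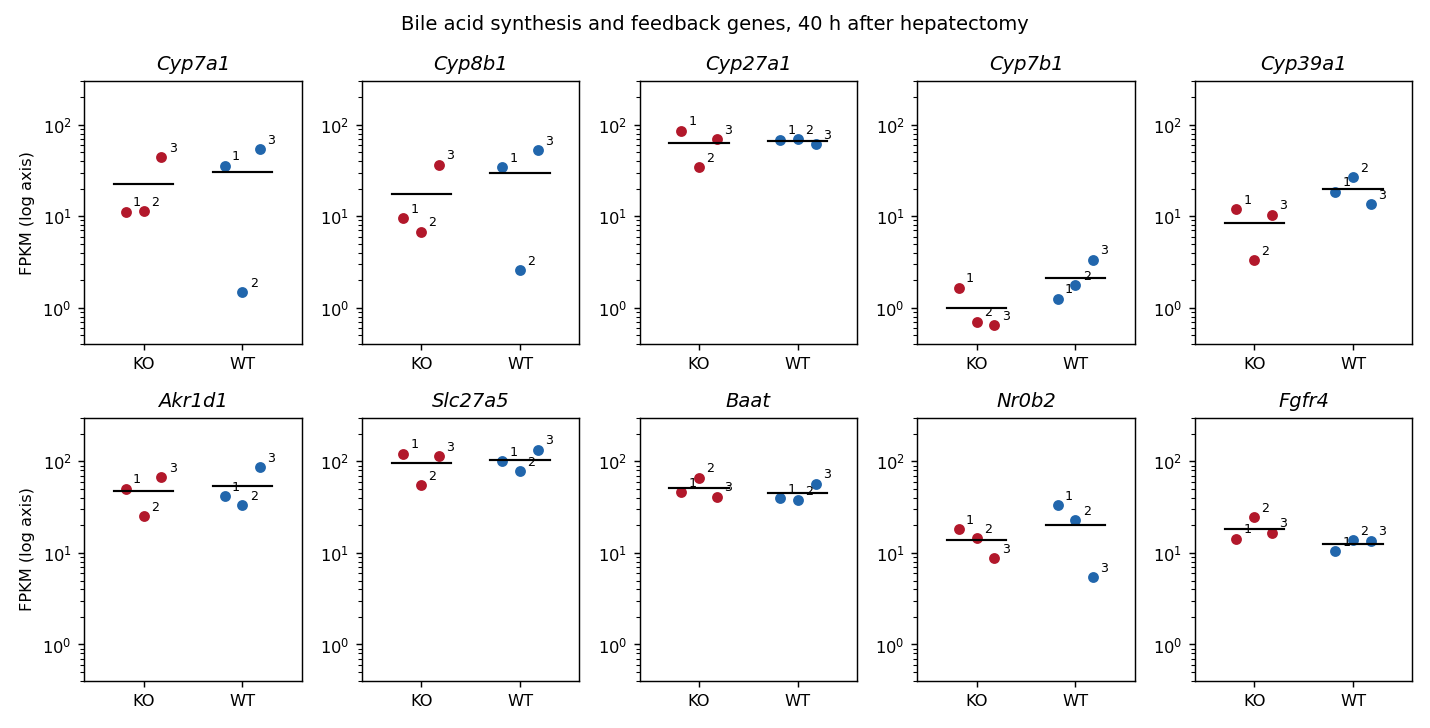
Level of each of the 10 genes (FPKM, log axis) in KO and WT livers, 3 libraries each, with replicate numbers beside the points and the group mean as a bar. Cyp7a1 and Cyp8b1 were lowest in WT replicate 2, and the Cyp39a1 points of KO lie below those of WT.

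The plot of levels by library shows how differently the genes were expressed and how widely they varied. Averaged over the 6 libraries, Slc27a5 was highest at 100.5 FPKM, followed by Cyp27a1 at 64.9, Akr1d1 at 50.8 and Baat at 47.9 FPKM. Cyp7a1 at 26.4, Cyp8b1 at 23.7, Nr0b2 at 17.1, Fgfr4 at 15.5 and Cyp39a1 at 14.1 FPKM formed a middle range in which the values of neighbouring genes overlapped. Cyp7b1 was lowest, at 1.57 FPKM. Other genes came down into its range in 1 library each, Cyp39a1 in KO replicate 2 and both Cyp7a1 and Cyp8b1 in WT replicate 2.

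Cyp7a1 encodes cholesterol 7α-hydroxylase, the rate-limiting enzyme of the classic pathway. Its transcript (chromosome 4, 6265612 to 6275631, mm10) had 11.2, 11.4 and 44.4 FPKM in KO livers, against 35.8, 1.47 and 54.1 FPKM in WT livers. The groups overlapped in full: WT held both the lowest and the highest library. The KO mean was 22.3 ± 19.1 FPKM and the WT mean 30.5 ± 26.7 FPKM (SD, n = 3 each), while the fitted log2 difference was 0.15 with a 95% interval of -2.67 to 2.97 (limma adjusted p = 0.960). The means and the fitted difference thus had opposite signs. The interval leaves differences of several-fold in either direction undetectable in these libraries.

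Cyp8b1, the sterol 12α-hydroxylase that directs the pathway to cholic acid, showed the same library-to-library pattern. It had 9.59, 6.80 and 36.7 FPKM in KO livers, against 34.4, 2.58 and 52.3 FPKM in WT livers (chromosome 9, 121914356 to 121916305). Again the lowest and the highest library were both WT, replicates 2 and 3. The difference was -0.37, with a 95% interval of -2.94 to 2.19 (limma adjusted p = 0.881). The 2 classic-pathway genes followed each other across libraries, and the level of Cyp7a1 was 1.17, 1.68 and 1.21 times that of Cyp8b1 in KO libraries and 1.04, 0.570 and 1.03 times in WT libraries. Each KO ratio lay above each WT ratio, a pattern chosen after the values were seen.

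The spread of these genes was among the widest in the table. From the lowest to the highest library, Cyp7a1 varied 3.96-fold within KO and 36.8-fold within WT, and Cyp8b1 5.40-fold within KO and 20.3-fold within WT. The within-group SD of Cyp7a1 on the log2 scale was 1.89, larger than that of 99.0% of tested loci, and that of Cyp8b1 was 1.71, larger than that of 98.8%, where the median locus had 0.248.

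The promoter of Cyp8b1 is shown because it carries a match to the HNF4A-type direct repeat core, TGGACTTTG or its reverse complement CAAAGTCCA, and HNF4A is a known activator of this gene. The 300 bases run from 250 before to 50 after the RefSeq start (GRCm38.p6, chr9:121916256-121916555, minus strand, 5′ to 3′), and capitals mark the match, 67 to 59 bases before the start.
Cyp8b1: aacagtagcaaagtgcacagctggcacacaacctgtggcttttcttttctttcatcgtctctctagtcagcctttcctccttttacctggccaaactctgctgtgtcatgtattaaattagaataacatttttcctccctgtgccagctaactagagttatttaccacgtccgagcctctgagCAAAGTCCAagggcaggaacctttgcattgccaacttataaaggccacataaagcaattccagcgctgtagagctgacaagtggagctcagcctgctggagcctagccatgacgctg
On either strand, 0.475% of the 32851 RefSeq windows of this length hold this core. The match is a description of the letters and shows no binding.

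Cyp27a1, the mitochondrial sterol 27-hydroxylase that opens the alternative pathway, was expressed at a steady level in WT. It had 85.8, 34.5 and 69.6 FPKM in KO livers, against 68.4, 69.8 and 61.4 FPKM in WT livers (chromosome 1, 74713574 to 74737890). KO replicate 2 was the lowest and KO replicate 1 the highest of the 6, so the WT values lay inside the KO range. Its difference was -0.17, with a 95% interval of -0.96 to 0.62 (limma adjusted p = 0.827).

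Cyp7b1 encodes the oxysterol 7α-hydroxylase that follows Cyp27a1. It had 1.66, 0.701 and 0.649 FPKM in KO livers, against 1.26, 1.77 and 3.36 FPKM in WT livers (chromosome 3, 18071950 to 18243338). The highest KO library exceeded the lowest WT library, and the remaining KO values lay below all WT values. The means were 1.0 ± 0.572 FPKM in KO and 2.13 ± 1.10 FPKM in WT (SD, n = 3 each), and the difference was -0.62 (SE 0.31, limma adjusted p = 0.379), on a scale that understates the change of a gene this low. Cyp7b1 is known to be higher in male than in female mouse liver. The labels do not give the sex of the mice. Xist, made from the inactive X chromosome, had 109, 115 and 111 FPKM in KO livers, against 84.6, 87.5 and 101 FPKM in WT livers. The Y-linked Eif2s3y, Kdm5d and Uty were listed at the floor in all 6 libraries, and Ddx3y had 0.0097 FPKM in KO replicate 2 only. By these genes, looked up after other values were seen, all 6 libraries read as female. Of 8 tested male-biased liver genes 1 was higher and 1 lower in KO at an unadjusted p under 0.05, with 0 called and a median difference of -0.28.

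Of 13 tested female-biased loci 0 were called, 1 was higher and 6 were lower at an unadjusted p under 0.05, against 11.2% higher and 3.99% lower over all loci. Their median difference was -1.66, and 4 had every KO value below every WT value, against 5.44% of all loci. These 13 loci came from 12 symbols. The 2 near-identical loci of Cyp3a41a (-4.43 and -4.44) both count among the 6 and among the 4, so the counts are not of independent genes. Sult3a1, a female-biased sulfotransferase, had 0.0915 FPKM in KO replicate 1 and was listed at the floor in KO replicates 2 and 3, against 36.4, 6.87 and 109 FPKM in WT livers. Cyp3a41a, a female-biased P450 gene, had 21.01, 0.177 and 3.49 FPKM in KO livers, against 182, 60.4 and 104 FPKM in WT livers at 1 of its 2 loci, whose values are uncertain because near-identical copies share reads. Neither gene was called (limma adjusted p = 0.128 and 0.181), and all KO values lay below all WT values in both. The part of sex-biased expression in the Cyp7b1 and Cyp39a1 values was not tested.

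Cyp39a1, which encodes the microsomal 24-hydroxycholesterol 7α-hydroxylase, was the gene of the set whose groups lay farthest apart. It had 11.9, 3.32 and 10.4 FPKM in KO livers, against 18.6, 26.9 and 13.6 FPKM in WT livers (chromosome 17, 43667425 to 43751431). The highest KO library stood below the lowest WT library, and KO replicate 2 was far below the other KO libraries. The KO mean was 8.54 ± 4.59 FPKM and the WT mean 19.7 ± 6.71 FPKM (SD, n = 3 each), so the WT mean was 2.30 times the KO mean. The log2 difference was -1.22 (SE 0.45, 95% interval -2.29 to -0.14), with an unadjusted p of 0.0318 and a limma adjusted p of 0.306. The difference therefore did not pass the threshold, and without KO replicate 2 it was -0.72. An exact permutation test of the 20 assignments gave a two-sided p of 0.1, the smallest it can give with 3 against 3.

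The ratio of Cyp39a1 to Cyp27a1 within a library, which does not depend on how libraries are scaled, was 0.139, 0.0963 and 0.149 in KO and 0.272, 0.385 and 0.221 in WT. All KO ratios lay below all WT ratios, KO replicate 2 included. This ratio was chosen after the values were seen. The ratio of Cyp7b1 to Cyp7a1 was 0.148, 0.0615 and 0.0146 in KO and 0.0352, 1.2 and 0.0622 in WT, and these groups overlapped.

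**Figure D2:**
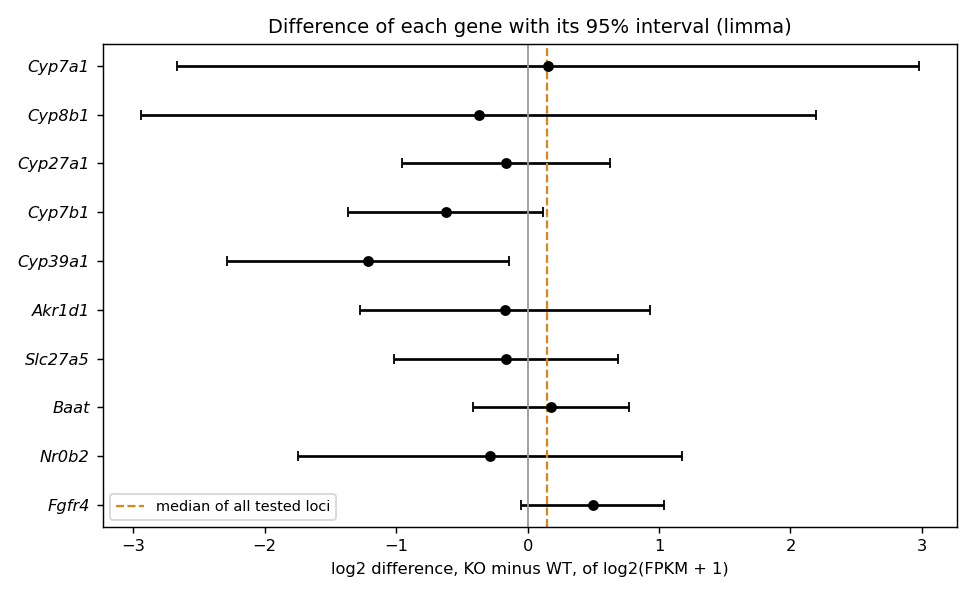
Difference of each gene, KO minus WT, on the log2(FPKM + 1) scale (points) with its 95% interval from limma (bars, 3 libraries per group). The intervals of Cyp7a1 and Cyp8b1 are the widest, and that of Cyp39a1, -2.29 to -0.14, lies below 0 before adjustment.

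The plot of differences sets the wide intervals of the classic pathway beside the narrower ones of the ring and conjugation enzymes. Akr1d1 encodes Δ4-3-oxosteroid 5β-reductase, which reduces the sterol ring. It had 50.1, 25.1 and 67.4 FPKM in KO livers, against 41.9, 33.4 and 86.9 FPKM in WT livers (chromosome 6, 37530173 to 37568815). The groups overlapped, with KO replicate 2 lowest and WT replicate 3 highest, and the difference was -0.17 (SE 0.46, limma adjusted p = 0.875).

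Slc27a5 encodes bile acyl-CoA synthetase, which activates bile acids with coenzyme A. It had 121, 54.7 and 113 FPKM in KO livers, against 100.3, 78.6 and 135 FPKM in WT livers (chromosome 7, 12988346 to 12998192). The extremes were again KO replicate 2 and WT replicate 3, and the difference was -0.16 (SE 0.36, limma adjusted p = 0.839).

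Baat encodes the acyltransferase that joins the activated bile acid to taurine or glycine. It had 45.8, 66.1 and 41.0 FPKM in KO livers, against 39.4, 38.0 and 57.0 FPKM in WT livers (chromosome 4, 49489418 to 49506558). KO replicate 2, the lowest library for Akr1d1 and Slc27a5, was the highest for Baat. The groups overlapped and the difference was 0.18 (SE 0.25, 95% interval -0.42 to 0.77, limma adjusted p = 0.750). Without KO replicate 2 the differences of Cyp8b1 (0.079), Cyp27a1 (0.22), Akr1d1 (0.22), Slc27a5 (0.20) and Baat (-0.022) each took the other sign.

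Nr0b2 encodes SHP, an orphan nuclear receptor without a DNA-binding domain that represses Cyp7a1 and Cyp8b1. It had 18.2, 14.4 and 8.71 FPKM in KO livers, against 33.1, 22.7 and 5.46 FPKM in WT livers (chromosome 4, 133553390 to 133556536). WT held both the lowest and the highest library, a 6.07-fold range against 2.09-fold in KO. The mean was 13.8 ± 4.79 FPKM in KO and 20.4 ± 14.0 FPKM in WT (SD, n = 3 each), and the difference was -0.29 with a 95% interval of -1.75 to 1.17 (limma adjusted p = 0.835).

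**Figure D3:**
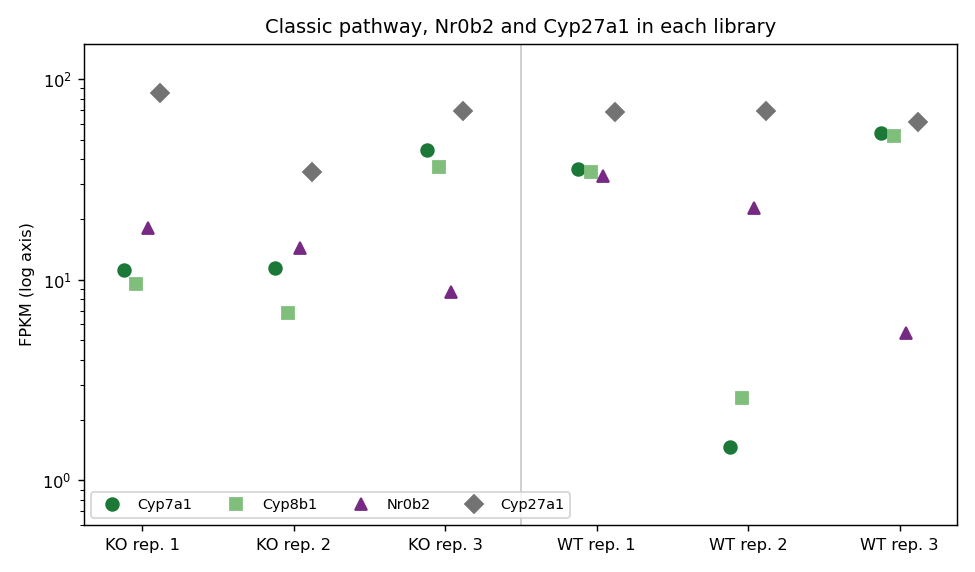
Levels of Cyp7a1, Cyp8b1, Nr0b2 and Cyp27a1 (FPKM, log axis) in each KO and WT library. In KO replicate 3 and WT replicate 3 Cyp7a1 and Cyp8b1 were highest within their group and Nr0b2 was lowest within its group.

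As the plot of the 4 genes by library shows, Nr0b2 was lowest in the replicate of each group in which the classic-pathway genes were highest. Relative to Cyp7a1, Nr0b2 stood at 1.63, 1.26 and 0.196 in KO libraries and at 0.924, 15.4 and 0.101 in WT libraries. The 2 lowest ratios came from 1 KO and 1 WT library, and the highest from WT replicate 2. The highest Nr0b2 came from another library, WT replicate 1 (33.1 FPKM), in which Cyp7a1 was not low (35.8 FPKM). WT replicate 2 had less Nr0b2 (22.7 FPKM), and its high ratio came with its low Cyp7a1 (1.47 FPKM). With 6 libraries in 2 groups this is a description of the libraries and no test was made. Cyp7a1 also follows the circadian clock. Of 17 tested clock genes 0 were called and 1, Ciart, was lower in KO at an unadjusted p under 0.05, against 3.99% of all loci. Per2, a core repressor of the clock, had 2.06, 2.81 and 2.18 FPKM in KO livers, against 5.15, 1.99 and 4.61 FPKM in WT livers. WT replicate 2, with the lowest Cyp7a1, also had the lowest Per2. In each group, though, the highest Per2 and the highest Cyp7a1 came from different replicates. The part of the clock in the spread of Cyp7a1 was not tested.

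The promoter of Nr0b2 is shown because it carries a match to the monomer site of LRH-1 (Nr5a2), CAAGGTCA or CAAGGCCA, a receptor known to activate Nr0b2 and to be held back by its product. The 300 bases are RefSeq's (GRCm38.p6, chr4:133553126-133553425, plus strand, 5′ to 3′). Capitals mark the LRH-1 match, 201 to 194 bases before the start, joined to an overlapping E-box, CACGTG, at 195 to 190 bases.
Nr0b2: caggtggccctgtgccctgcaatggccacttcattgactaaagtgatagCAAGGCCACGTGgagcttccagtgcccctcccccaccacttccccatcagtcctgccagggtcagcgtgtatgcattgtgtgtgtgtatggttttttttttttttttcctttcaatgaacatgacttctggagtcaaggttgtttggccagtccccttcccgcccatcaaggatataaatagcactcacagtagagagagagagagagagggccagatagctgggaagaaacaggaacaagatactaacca
On either strand the LRH-1 match was found in 3.92% and the E-box in 7.15% of all windows. Of the 10 genes 5 matched a RefSeq window, the others being Cyp27a1, Akr1d1 and Fgfr4, and Cyp7a1, Cyp7b1, Cyp39a1, Slc27a5 and Baat did not. The FXR inverted repeat, searched as exact letters, was found in 0 of the 5 and in 0.00913% of all windows, so its absence here is the usual case. This says only that those letters were not in these windows.

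**Figure D4:**
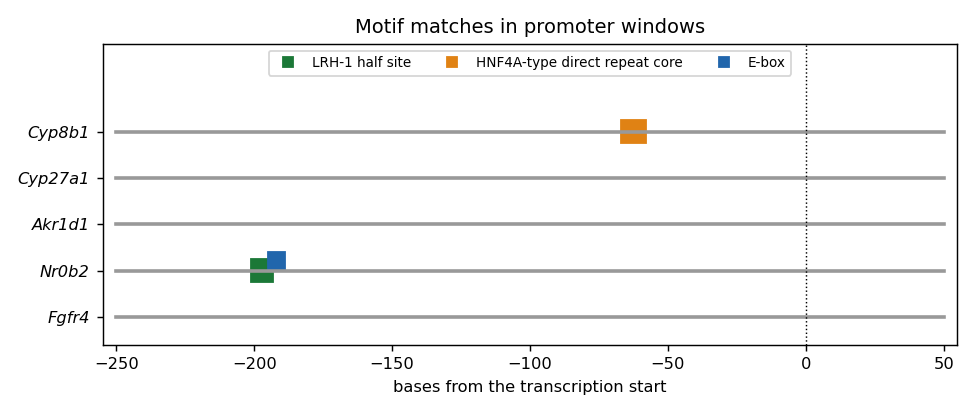
Positions of the motif matches in the promoter windows of 5 genes, in bases from the RefSeq transcription start (0, dotted line), with squares spanning the matched bases. Cyp8b1 and Nr0b2 each hold the matches described, and the other 3 windows hold none.

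The map of motif matches shows 1 match in Cyp8b1 and the overlapping pair in Nr0b2. Fgfr4 encodes the receptor through which FGF15 acts on hepatocytes. It had 14.3, 24.4 and 16.6 FPKM in KO livers, against 10.4, 13.8 and 13.5 FPKM in WT livers (chromosome 13, 55152818 to 55168759). Every KO value lay above every WT value as deposited, with KO replicate 1 close to the highest WT library and KO replicate 2 well above, and after median-of-ratios rescaling the groups overlapped. The mean was 18.4 ± 5.31 FPKM in KO and 12.6 ± 1.90 FPKM in WT (SD, n = 3 each). The difference was 0.50 (SE 0.23, 95% interval -0.05 to 1.04, limma adjusted p = 0.350), and it was 0.28 without KO replicate 2.

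The other genes of FGF15-FGFR4 signalling gave 16 tested loci of 19 symbols, of which 0 were called. At an unadjusted p under 0.05, 2 were higher and 1 lower, near the shares over all loci (11.2% higher, 3.99% lower). Klb encodes β-Klotho, the co-receptor of FGFR4. It had 11.3, 14.4 and 11.4 FPKM in KO livers, against 5.80, 8.12 and 8.68 FPKM in WT livers, with every KO value above every WT value, also after rescaling. Its difference was 0.66 (SE 0.19, limma adjusted p = 0.234) and did not pass the threshold. Fgfr3, another receptor of the FGF family, had 2.22, 1.68 and 1.56 FPKM in KO livers, against 5.45, 6.73 and 7.14 FPKM in WT livers. The groups were well apart, the difference was -1.40 (SE 0.16), and the limma adjusted p of 0.0533 fell just short of the threshold. It passed without KO replicate 2 (0.0284), after rescaling (0.0333) and under 2 other alternatives. Under the remaining alternatives it did not pass, among them no filter (0.107) and leaving out any library other than KO replicate 2 (0.0911 to 0.188). Fgf15, made in the ileum, was listed at the floor in all 6 libraries. The kinase gene Mapk9 (0.29) and the adaptor gene Grb2 (0.37) had log2 differences that were not called.

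The other enzymes of synthesis gave 13 tested loci of 16 symbols, with 0 called. At an unadjusted p under 0.05, 2 were higher and 1 lower, against 11.2% higher and 3.99% lower over all loci. Por encodes the reductase that supplies electrons to the microsomal P450 enzymes, Cyp7a1, Cyp8b1, Cyp7b1 and Cyp39a1 among them. It had 92.4, 86.5 and 119 FPKM in KO livers, against 252, 135 and 165 FPKM in WT livers. All KO values lay below all WT values, with a difference of -0.85 (SE 0.27, limma adjusted p = 0.271). Fdxr encodes the ferredoxin reductase of mitochondrial P450 enzymes such as Cyp27a1. It had 4.72, 7.24 and 7.60 FPKM in KO livers, against 3.89, 2.66 and 3.80 FPKM in WT livers. Here all KO values lay above all WT values, with a difference of 0.75 (SE 0.21, limma adjusted p = 0.234). Neither reductase passed the threshold. The peroxisomal side-chain enzymes Acox2 (0.48), Amacr (0.35) and Hsd17b4 (-0.30) had log2 differences that were not called.

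Nuclear receptors and regulators of the pathway gave 27 tested loci of 29 symbols, again with 0 called. The 2 higher and 2 lower at an unadjusted p under 0.05 are, together, close to the 15.2% of all loci at that level. Nr1h4, the bile acid receptor FXR, had 24.4, 48.7 and 27.1 FPKM in KO livers, against 42.2, 29.2 and 34.3 FPKM in WT livers. Nr5a2, or LRH-1, had 19.2, 18.2 and 19.2 FPKM in KO livers, against 17.2, 23.4 and 17.3 FPKM in WT livers. Hnf4a, an activator of Cyp7a1 and Cyp8b1, had 173, 138 and 155 FPKM in KO livers, against 138, 196 and 114 FPKM in WT livers. The groups overlapped for all 3, with log2 differences of -0.13, -0.02 and 0.08. Hnf4a changed sign under rescaling (-0.07).

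At an unadjusted p under 0.05, lower levels in KO were found for Prox1, a co-repressor of Cyp7a1, with a difference of -0.51 (SE 0.18, limma adjusted p = 0.290), and for Ppara, the fatty acid receptor, with -0.49 (limma adjusted p = 0.308). The histone demethylase gene Kdm1a (0.40, limma adjusted p = 0.266) and Smarca4 (0.42, limma adjusted p = 0.287), the ATPase of the SWI/SNF complex, were higher at that level. None of these differences passed the threshold.

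The other FXR target genes gave 19 tested loci of 20 symbols, with 0 called. At an unadjusted p under 0.05, 2 were higher and 2 lower, against 11.2% higher and 3.99% lower over all loci. Fetub, a secreted protease inhibitor, had 122, 139 and 85.0 FPKM in KO livers, against 257, 253 and 248 FPKM in WT livers. Its difference of -1.15 (SE 0.22, limma adjusted p = 0.136) was not called with all libraries. Among the alternatives it was called only without KO replicate 2 (limma adjusted p = 0.0399), a fit that called 242 loci in all. Pltp, the phospholipid transfer protein, had 22.7, 14.9 and 16.5 FPKM in KO livers, against 9.50, 9.21 and 7.19 FPKM in WT livers, with a difference of 0.97 (limma adjusted p = 0.164). Sult2a8, a sulfotransferase listed under an older symbol, had 17.4, 5.0 and 1.29 FPKM in KO livers, against 52.1, 23.5 and 55.5 FPKM in WT livers. Every KO value lay below every WT value, with a difference of -2.73 (SE 0.74, limma adjusted p = 0.219). Slc51b, a subunit of the basolateral bile acid exporter, had a difference of 1.39 with overlapping groups (limma adjusted p = 0.333).

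**Figure D5:**
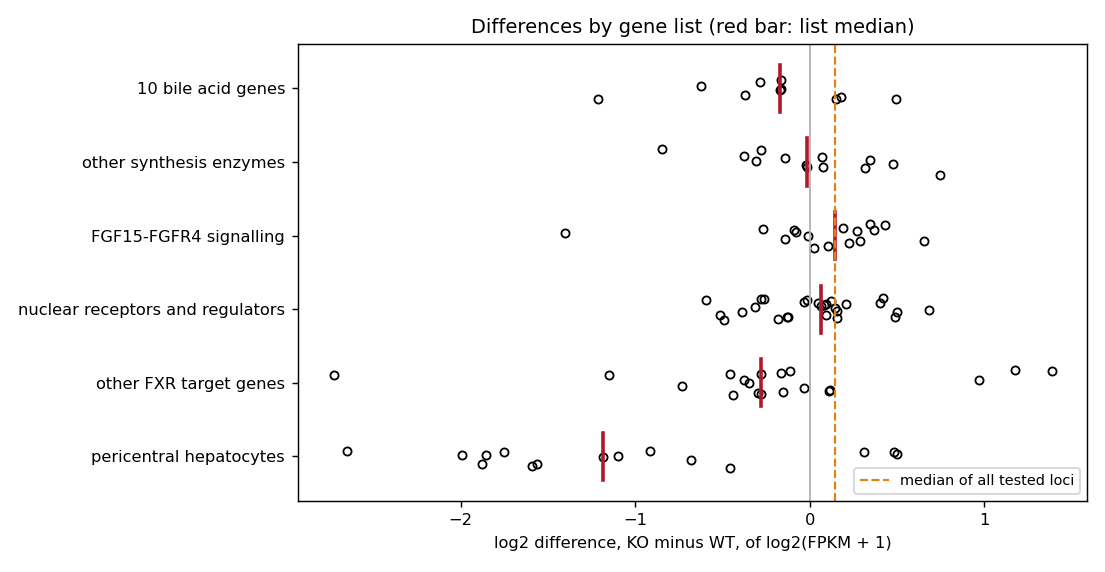
Log2 difference, KO minus WT, of every tested gene (circles) of the 10 bile acid genes and 5 other lists, with each list's median as a red bar and the median of all tested loci (0.15) as a dashed line. The bile acid genes have a median of -0.17 and the pericentral hepatocyte genes one of -1.19.

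The plot by gene list sets the 10 genes beside their pathway and beside a list of pericentral hepatocyte genes, since Cyp7a1 is known to be expressed mainly in hepatocytes near the central vein. Of 15 tested pericentral genes 0 were called, 10 were lower and 0 higher at an unadjusted p under 0.05, against 3.99% lower and 11.2% higher over all loci. In 7 every KO value lay below every WT value, against 5.44% of all loci. Summed, they came to 1053 to 2080 FPKM in KO and 1789 to 4099 FPKM in WT. On the log2 scale, centred across libraries, their mean level was lowest in KO replicate 2 (-1.13). Cyp27a1, Cyp39a1, Akr1d1 and Slc27a5 were also lowest in that library, whereas Baat and Fgfr4 were highest in it. Cyp7a1 and Cyp8b1 were lowest in WT replicate 2, where the mean pericentral level was 0.0175, against 0.688 in WT replicate 1 and 0.926 in WT replicate 3. The WT libraries thus had the same order in the pericentral mean and in both genes. The KO libraries, with pericentral means of -0.105, -1.13 and -0.397, did not, as both genes were highest in KO replicate 3. Among 14 tested periportal genes 1, Cdh1, was called lower (limma adjusted p = 0.0488), a call lost without any 1 library other than KO replicate 2 (0.0839 to 0.173). The median difference of the periportal list was 0.29, on the other side of 0 from Cdh1. Hsd17b13, a lipid droplet protein gene of that list, had 216, 173 and 314 FPKM in KO livers, against 61.9, 41.4 and 115 FPKM in WT livers. Every KO value lay above every WT value, and the difference of 1.76 was not called (limma adjusted p = 0.182). The part of zonation in the values of the 10 genes was not tested.

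One gene of bile acid transport was called. Slc10a2 encodes the apical sodium-dependent bile acid transporter, which takes up bile acids in the ileum and in bile duct cells. It had 2.69, 1.57 and 1.64 FPKM in KO livers, against 12.2, 17.6 and 12.4 FPKM in WT livers. The groups were far apart, with a WT mean 7.14 times the KO mean, a difference of -2.34 (SE 0.21) and a limma adjusted p of 0.0302. The call was lost without KO replicate 3 (0.148) and without WT replicate 1 (0.179), 2 (0.0839) or 3 (0.115), with differences of -2.51 to -2.18 whichever library was left out. It belonged to a list of 8 ileal enterocyte genes, of which 3 were tested, with a median difference of 0.59. Fabp2 of that list went the other way from Slc10a2, with 82.3, 184 and 55.8 FPKM in KO livers, against 47.6, 53.2 and 52.2 FPKM in WT livers. Its difference was 0.88 (limma adjusted p = 0.355). Fabp6 and Sis of the list were at the floor in all 6 libraries. Of 8 cholangiocyte markers 4 were tested and 0 called, and the list summed to 23.7 to 35.8 FPKM in KO and 16.6 to 26.4 FPKM in WT.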

How the data were processed

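Liver RNA was extracted with Trizol and a miRNeasy kit, per the labels' protocols. The submitters' processing notes name TopHat, edgeR, mm9 and mm10, with no roles. The deposited values are FPKM as the authors made them, per the file headers, for 6 libraries. Of 23847 loci, 312 marked LOWDATA were left out, and the listed floor of 0.001 was set to 0. Deposited starts count from 0 and are printed from 1, on mm10. FPKM is relative to each library's total, and the sources used here give no read totals.

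KO and WT were compared with limma 3.58.1 (R 4.3.3; mean-variance trend, two-sided, genotype only) on log2(FPKM + 1), for loci averaging at least 1 FPKM, with Benjamini-Hochberg adjustment. The alternatives were a pseudocount of 0.1, no filter, 2 rescalings, no trend, a replicate block and leaving out each library. Fits were tested on simulated data. The members and lists were chosen with earlier results of these data known. Named genes were the 10 members, Arid1a, up to 5 per pathway list and up to 2 per marker list by smallest p, plus Nr1h4, Nr5a2 and Hnf4a, and some results are not reported here. Promoter windows and 4 older symbols came from RefSeq (GRCm38.p6).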

Additional observations from a re-analysis of the deposited data

How the results depend on the processing

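None of the 10 genes was called under any of the 12 alternatives, where the smallest adjusted p was 0.258 (Cyp39a1 without KO replicate 2). Over all loci 13 were called (2 higher, 11 lower). There were 13 after median-of-ratios rescaling (0 higher, 13 lower), 14 after quantile normalization (0 and 14), 6 with no filter on low values, and 0 (without WT replicate 1, 940 at an unadjusted p under 0.05) to 242 (without KO replicate 2, 197 higher and 45 lower) when 1 library was left out, with 2 without KO replicate 3, 2 without WT replicate 2 and 3 without WT replicate 3. With the replicate block 47 were called. Correlations of deviations were -0.08, 0.16 and 0.16 for the same replicate number and -0.26 to 0.17 for different numbers, which does not settle whether the numbers pair libraries. The block called none of the 10 genes. It lowered the SE of Cyp7a1 from 1.19 to 0.71 and of Cyp8b1 from 1.08 to 0.52. The SE also fell for the other members except Cyp7b1, Cyp39a1 and Baat, where it rose. Their median relative to all loci lay between -0.55 and 0.02. Cyp39a1 (-1.51 to -0.72), Cyp7b1 (-0.85 to -0.36) and Fgfr4 (0.28 to 0.65) kept their sign whichever library was left out. The others did not: Cyp7a1 ranged from -1.24 (without WT replicate 2) to 1.0 (without WT replicate 3), Cyp8b1 from -1.57 to 0.38 without the same libraries, Cyp27a1 from -0.43 to 0.22, Akr1d1 from -0.47 to 0.23, Slc27a5 from -0.37 to 0.20, Baat from -0.022 to 0.36 and Nr0b2 from -1.0 to 0.20. So did Nr1h4 (-0.42 to 0.061) and Nr5a2 (-0.089 to 0.12), and Hnf4a (-0.092 to 0.30, with -0.069 and -0.034 under the rescalings). Fgfr3 passed the threshold under 4 alternatives, and Slc10a2 lost its call under 5 and Cdh1 under 7. The causes were not tested. The 3 libraries per group limit every interval given.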

Other observations

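Markers of the other liver cells gave 0 calls by limma in the lists of Kupffer cells and macrophages, sinusoidal endothelium and stellate cells, with 8 tested in each. Their median differences were 0.10, 0.19 and -0.17. In the Kupffer cell list 1 of 8 had every KO value above every WT value and 7 overlapped, and in the stellate cell list 1 lay above and 2 below, where 16.7% of all loci lay above and 5.44% below. Marco, a scavenger receptor of Kupffer cells, had 16.9, 27.6 and 11.8 FPKM in KO livers, against 9.84, 8.99 and 5.11 FPKM in WT livers. Reln, made by stellate cells, had 16.7, 21.9 and 14.6 FPKM in KO livers, against 8.88, 9.51 and 10.5 FPKM in WT livers. These 2 are the genes of their lists that lay above, with differences of 1.10 (adjusted p = 0.264) and 0.80 (adjusted p = 0.179) in limma that did not pass the threshold. Colec11, another stellate cell gene, went the other way, with 8.93, 12.1 and 11.4 FPKM in KO livers, against 15.8, 13.6 and 18.2 FPKM in WT livers. Of 8 markers of T, NK and B cells 0 reached the level tested, and they summed to 0.282 to 0.845 FPKM in KO and 0.757 to 1.19 FPKM in WT.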
